A study of Mus musculus with 2 samples.

Results

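The numbered Zfp genes were examined in progenitors and neurons of the mouse cortex, sorted at embryonic day 15.5. They were taken as every listed gene whose symbol is Zfp followed by digits alone, which gave 333 of 20373 genes. The embryos came from heterozygous Nestin-GFP mice crossed with homozygous DCX-mRFP mice and carried both reporters, a green one for neural progenitor cells (NPCs) and a red one for young neurons. Green cells were collected as NPCs and cells of both colours as neurons, so both groups carry the same 2 transgenes, and sorting rests on reporter fluorescence, which can outlast the activity of its promoter. Each group was 1 RNA library, with no replicate, so no difference has a replicate check and no p-value is given. The series also concerns polymerase pausing and bivalent histone marks, which were not analysed here.

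Zfp symbols were given to mouse genes for zinc finger proteins. Most encode C2H2 proteins, in which pairs of cysteines and histidines hold a zinc ion and each finger contacts a few bases of DNA. Many also carry a Krüppel-associated box (KRAB), which recruits Trim28 and the histone methyltransferase Setdb1 and so silences retroelements and imprinted loci. A few members are unrelated to DNA binding, such as Zfp36 (tristetraprolin), which binds AU-rich messenger RNAs and speeds their decay.

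The labels were checked against marker genes. All 8 NPC markers (Nes, Pax6, Sox2, Hes1, Hes5, Fabp7, Vim and Slc1a3) were at least 2-fold higher in the NPC library, with a summed level of 1711 counts per 1000000 (CPM) against 618. Of the 7 listed neuron markers, 6 were higher in the neuron library, 2 of them at least 2-fold, with summed levels of 5221 and 8244 CPM. Markers of other cell types also differed. Summed levels in NPCs and neurons were 225 and 12.03 CPM for 8 pericyte genes, 20.4 and 3.12 for 8 endothelial genes, 113 and 39.6 for 8 oligodendrocyte lineage genes, 34.6 and 154 for 10 microglia genes, 112 and 468 for 6 Cajal-Retzius genes and 297 and 213 for 6 interneuron genes, all 6 of which were higher in NPCs. Reln alone held 95.8 and 434 CPM of the Cajal-Retzius sums, and Ebf3 in that list was higher in NPCs. Acta2 among the pericyte genes and Mog among the oligodendrocyte lineage genes were higher in neurons. Cspg4 is in both of these lists. The part of these cell types in the results below was not tested. In sorted populations, fewer cells of a type and less RNA per cell cannot be told apart. The libraries held 26346226 (NPC) and 23312054 (neuron) reads on listed genes. Both were put on CPM by 1 constant that keeps the authors' scaling between them, under which 1 CPM is 27.0 NPC reads and 22.8 neuron reads.

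The coding sequences behind the symbols were surveyed first, since members share a name and not all share a structure. Of the 333 members, 332 were matched to a coding transcript of GENCODE release M21, 11 of them through an older symbol, and Zfp939 was not. The C2H2 finger pattern (cysteine, 2 to 4 residues, cysteine, 12 residues, histidine, 3 to 5 residues, histidine) was found at least once in 319 of them (96.1%), against 3.62% of all 21926 mouse proteins searched. The median member had 10 such patterns, the quartiles were 7 and 14, and Zfp142 had the most, 37. A KRAB core, called where at least 7 of 9 conserved residues were present, was found in 179 members (53.9%), against 329 of all proteins. No finger pattern was found in 13 members, among them Zfp36, the zinc-binding protein gene Zfp259 (now Zpr1), and Zfp703 and Zfp503, which encode corepressors with a single atypical finger.

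Promoters of members with a KRAB core held fewer CG pairs than those of members without one. This measure, its limit of 10 and the split by KRAB were chosen after values had been seen. The motifs CATCTG and GGCGGGA had been searched first, on both strands of the same windows, and were set aside. CATCTG occurred in 15.1% of 258 member promoters, 9.60% of promoters of genes at 1 CPM or more and 14.5% of all promoters, and GGCGGGA in 12.02%, 18.6% and 9.76%. CG pairs were counted in the 250 bases before the first start that RefSeq (GRCm38.p6) lists for 258 of the members at 1 CPM or more in a library. The median was 11 CG pairs, against 16 for all genes at that level with a promoter in the table and 6 for all promoters. The 151 members with a KRAB core had a median of 9, and 43.0% of them held 10 or more. The 106 without one had a median of 15.5, and 77.4% held 10 or more. With the stricter KRAB pattern described below, the shares were 42.6% of 122 and 70.4% of 135. Promoters of all genes at 1 CPM or more reached 10 CG pairs in 75.9% of 9101 cases, and all promoters in 38.2%. Members without a KRAB core were thus near the share of all genes at that level, and members with one were below it. The windows of members that the results below turn on are printed 5′ to 3′ with CG in capitals, to show this range.
Zfp931 (chr2:178078426-178078675, minus strand): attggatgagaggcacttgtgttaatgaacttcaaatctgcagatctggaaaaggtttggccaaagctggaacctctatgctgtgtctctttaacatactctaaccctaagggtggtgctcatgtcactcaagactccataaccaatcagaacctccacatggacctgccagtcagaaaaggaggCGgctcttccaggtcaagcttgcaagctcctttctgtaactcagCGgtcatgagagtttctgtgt
Zfp367 (chr13:64153200-64153449, minus strand): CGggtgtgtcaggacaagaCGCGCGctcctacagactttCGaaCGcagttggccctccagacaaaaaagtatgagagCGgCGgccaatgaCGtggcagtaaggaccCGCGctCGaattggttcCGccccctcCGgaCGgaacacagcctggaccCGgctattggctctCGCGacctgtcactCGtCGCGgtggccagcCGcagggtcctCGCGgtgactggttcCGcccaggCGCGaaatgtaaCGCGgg
Zfp219 (chr14:52020734-52020983, minus strand): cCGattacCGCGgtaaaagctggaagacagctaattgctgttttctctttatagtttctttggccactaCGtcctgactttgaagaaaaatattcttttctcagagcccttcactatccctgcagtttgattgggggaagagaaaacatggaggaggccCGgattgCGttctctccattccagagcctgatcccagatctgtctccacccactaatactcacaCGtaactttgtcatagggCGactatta
Zfp428 (chr7:24506837-24507086, plus strand): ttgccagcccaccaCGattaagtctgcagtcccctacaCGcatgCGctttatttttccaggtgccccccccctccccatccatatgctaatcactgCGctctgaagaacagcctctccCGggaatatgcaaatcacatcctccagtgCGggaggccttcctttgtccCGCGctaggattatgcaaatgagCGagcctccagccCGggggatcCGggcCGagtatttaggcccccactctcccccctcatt
Zfp558 (chr9:18473646-18473895, minus strand): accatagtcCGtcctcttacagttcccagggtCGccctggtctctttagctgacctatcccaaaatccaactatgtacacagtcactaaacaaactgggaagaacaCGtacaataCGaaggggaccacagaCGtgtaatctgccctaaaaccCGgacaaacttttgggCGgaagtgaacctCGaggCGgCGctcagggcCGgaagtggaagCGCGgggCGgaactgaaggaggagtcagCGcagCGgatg
Zfp238, now Zbtb18 (chr1:177442101-177442350, plus strand): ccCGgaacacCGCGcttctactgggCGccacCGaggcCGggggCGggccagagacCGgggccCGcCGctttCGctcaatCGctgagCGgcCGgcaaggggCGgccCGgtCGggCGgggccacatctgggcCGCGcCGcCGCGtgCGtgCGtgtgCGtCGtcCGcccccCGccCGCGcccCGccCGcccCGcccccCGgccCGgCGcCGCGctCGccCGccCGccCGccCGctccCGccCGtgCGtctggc
The 3 genes higher in NPCs held 2 (Zfp931), 29 (Zfp367) and 8 (Zfp219) CG pairs, and those higher in neurons 12 (Zfp428), 16 (Zfp558) and 47 (Zfp238), so the ranges overlap. Zfp9, one of the 3 furthest toward neurons, was not in the promoter table. Members with 10 or more CG pairs had a median log2 ratio of neuron to NPC of 0.011 (n = 147) and those with fewer a median of −0.029 (n = 111).

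Nearly all numbered Zfp genes reached 1 CPM in at least 1 of the 2 libraries, and most stayed below 100 CPM. At least 1 CPM in a library was reached by 313 of 333 members (94.0%), against 62.3% of all listed genes, and at least 10 CPM by 273 (82.0%), against 48.8%. Among the 313, the median level was 31.8 CPM in NPCs and 32.8 CPM in neurons. At least 100 CPM in a library was reached by 47 members. A mean of 100 CPM or more over both libraries was seen for 43 of the 313 members. Of the 12380 other genes at 1 CPM or more, 2666 had such a mean. Together the members took 1.88% of NPC reads and 1.81% of neuron reads, and their summed levels were 18371 and 18567 CPM.

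Zfp238 had the highest level of all members, also per length. It encodes the BTB zinc finger repressor RP58, which the cortex needs for neuron production and migration. It was at 1295 CPM in NPCs and 1783 CPM in neurons, a ratio of 1.38-fold higher in neurons with a 95% counting interval of 1.36 to 1.40 (exact Clopper-Pearson, from the reads of both libraries). Per kilobase of transcript it stood at 308 and 424 CPM, rank 1 of the members. It accounted for 7.05% and 9.61% of the members' summed level. Without Zfp238 the sums were 17076 and 16784 CPM.

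The next members by level differed little between the libraries. Zfp462, a regulator of heterochromatin that is mutated in a human neurodevelopmental disorder, was at 789 and 939 CPM (1.19-fold toward neurons, 1.17 to 1.21). Zfp445, which protects imprinted loci, was at 403 and 418 CPM (1.04-fold, 1.01 to 1.06). Its direction turned with scaling by total reads (log2 ratio −0.017). Zfp292 was at 396 and 329 CPM, 1.201-fold toward NPCs (1.17 to 1.24). The other members among the 10 with the highest mean CPM were Zfp266, Zfp871, Zfp106, Zfp664, Zfp704 and Zfp740, between 219 and 391 CPM in NPCs and between 232 and 363 CPM in neurons. Of these 10, only Zfp664 and Zfp704, beside Zfp238, lay 1.3-fold or more apart.

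**Figure D1:**
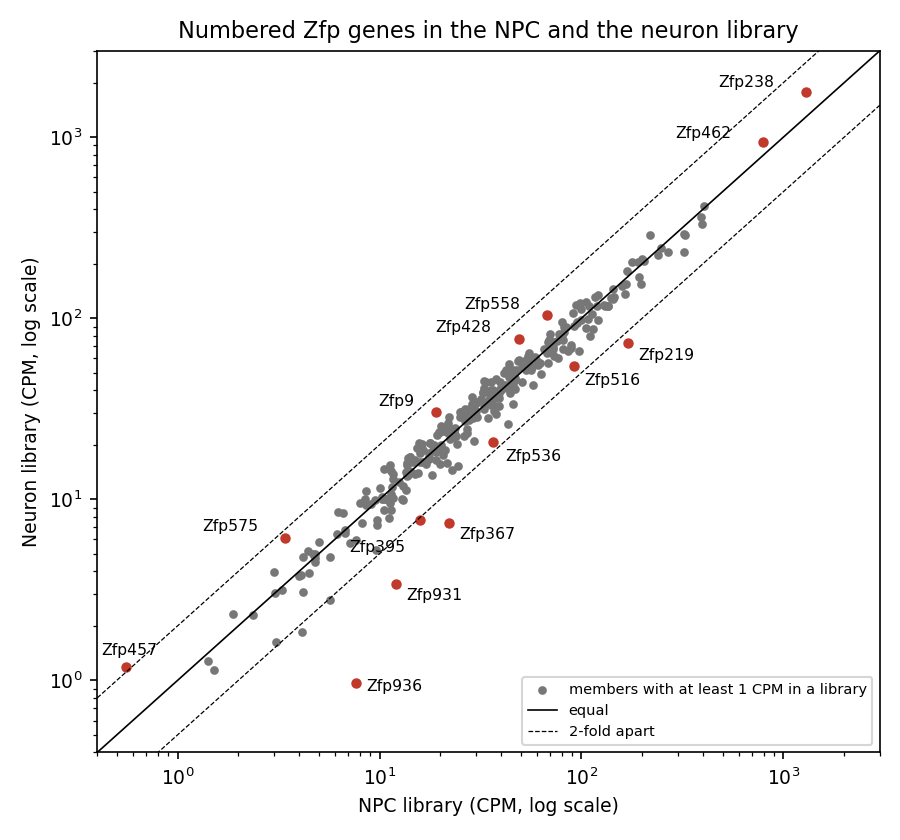
Level of each of the 313 members with at least 1 CPM in a library, NPC library on the x axis and neuron library on the y axis, both in CPM on log scales, with lines at equality and at 2-fold. Most points hug the line of equality up to Zfp238 at 1295 and 1783 CPM, and the points below the lower dashed line include Zfp936, Zfp931, Zfp367 and Zfp219.

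The spread of neuron over NPC ratios was narrow. Ratios were taken as log2((neuron + 1)/(NPC + 1)) on CPM, which understates differences of low genes. The median over 313 members was −0.0027, the quartiles were −0.13 and 0.18, and the SD across members was 0.31. The 5th and 95th percentiles were −0.47 and 0.34. For all other 12380 genes at that level the median was −0.0050, the quartiles were −0.27 and 0.24, the SD was 0.60 and the same percentiles were −1.18 and 0.91. Members and other genes thus had medians near 0, and the members' ratios lay closer together. The split was even, with 155 members higher in neurons and 158 higher in NPCs, but scaling by total reads in place of the authors' scaling gave 121 and 192. That scaling moved the median of all genes too, from −0.0049 to −0.068.

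Few members passed a fold of 2. None of the 313 was at least 2-fold higher in neurons, where 3.85% of all tested genes were. In NPCs 4 members were at least 2-fold higher, where 6.73% of all tested genes were, and these were Zfp936, Zfp931, Zfp367 and Zfp219. At 1.5-fold, 4 members were higher in neurons against 10.6% of all genes, and 14 in NPCs against 13.1%. With total-read scaling these 1.5-fold counts were 1 and 15. Within 1.5-fold lay 295 members (94.2%) and 75.9% of the other genes. The narrower spread was also seen within bands of level. Among genes with a mean of 10 to 100 CPM, the SD was 0.26 for 225 members and 0.57 for 6695 other genes. At 100 CPM or more it was 0.28 for 43 members and 0.43 for 2666 other genes, and from 1 to 10 CPM it was 0.50 for 44 members and 0.77 for 2742 other genes.

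Related families named by symbol were set beside the members, and their counts past 2-fold are to be read against 3.85% (neurons) and 6.73% (NPCs) of all tested genes. Of 31 numbered Zbtb genes, which encode BTB zinc finger factors, 0 were 2-fold higher in neurons and 2 in NPCs, with a median of −0.086 and an SD of 0.35. Of 16 numbered Zscan and Zkscan genes, 0 were 2-fold apart, with a median of −0.099 and an SD of 0.27. Of 22 Zfp genes with a letter after the number, 1 was 2-fold higher in neurons and 2 in NPCs, with a median of −0.086 and an SD of 0.59. The SDs of the Zbtb, Zscan and Zkscan genes were thus close to that of the numbered Zfp genes. By the width between quartiles all of these families were narrow. It was 0.24 for Zbtb, 0.27 for Zscan and Zkscan and 0.30 for Zfp genes with a letter. For the numbered Zfp genes it was 0.31, and for all other genes 0.51. Differences among the families were not tested.

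**Figure D2:**
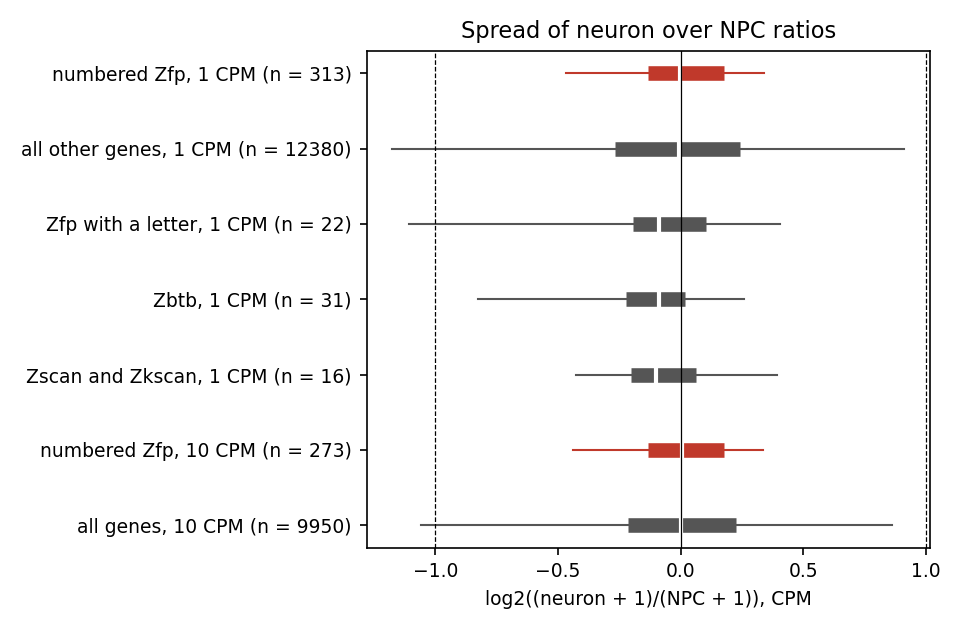
Distribution of log2((neuron + 1)/(NPC + 1)) in each gene set, on CPM. The white mark is the median, the thick bar the span between quartiles and the thin line the 5th to 95th percentile, with dashed lines at 2-fold. The numbered Zfp genes (red) run from −0.47 to 0.34 and all other genes from −1.18 to 0.91.

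The members furthest apart were mostly higher in NPCs. Of 273 members with at least 10 CPM in a library, 3 were at least 2-fold higher in NPCs (5.51% of all genes at that level) and 0 in neurons (3.60%). At 1.5-fold these counts were 9 in NPCs (10.2% of all genes) and 3 in neurons (9.33%). The median ratio between the upper and lower counting bound was 1.204 for these members, and the widest was 1.67. The filter takes the higher library, so a member can pass through the library where it is high. Of the 3 past 2-fold, Zfp931 and Zfp367 reached 10 CPM in NPCs alone and Zfp219 in both libraries. Among the others furthest apart, Zfp395 and Zfp825 reached it in NPCs alone and Zfp458 in neurons alone.

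Among these 273 members the largest fold toward NPCs was that of Zfp931, a KRAB gene with 7 finger patterns, at 12.05 CPM in NPCs and 3.42 CPM in neurons (3.52-fold, 2.74 to 4.57). Of its 50-base words, 52.6% also occur in transcripts of other genes, so its reads could have been split or lost and its value is uncertain. Zfp367, whose protein has 2 finger patterns, was at 22.1 and 7.42 CPM (2.98-fold, 2.51 to 3.56), with 15.9% of its words shared. Zfp219, known as a partner of Sox9 in cartilage, was at 169.7 and 72.8 CPM (2.33-fold, 2.20 to 2.47), with 4.57% shared. It is the most abundant of the members past 2-fold, and ranked 15 among members per kilobase. Zfp395 was at 15.8 and 7.64 CPM (2.07-fold, 1.73 to 2.49), and its log2 ratio with 1 CPM added was −0.96, just short of 2-fold.

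The next members toward NPCs hold several known regulators. Zfp536, a repressor of neuronal differentiation, was at 36.5 and 20.7 CPM (1.77-fold, 1.58 to 1.98). Zfp516, an activator of brown fat genes, was at 91.4 and 54.4 CPM (1.68-fold, 1.57 to 1.80). Zfp217, found in corepressor complexes with CtBP, was at 43.5 and 26.1 CPM (1.67-fold, 1.51 to 1.84). These 3 proteins have 8 to 11 finger patterns and no KRAB core, and their transcripts share no words with other genes. Zfp568, a KRAB repressor of a placental Igf2 promoter, was at 24.5 and 15.2 CPM (1.61-fold, 1.41 to 1.83). Zfp800 was 1.58-fold and Zfp687 1.49-fold higher in NPCs. Zfp105, Zfp664, Zfp825, Zfp191 and Zfp37 lay between 1.36-fold and 1.42-fold. Zfp191 (now Zfp24) is required for myelination by oligodendrocytes and was at 109.8 and 80.2 CPM. Of 8 markers of the oligodendrocyte lineage, 7 were lower in the neuron library as well. The part of that lineage in the value of Zfp191 was not tested.

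Toward neurons the differences were smaller. Zfp428, a short protein of 189 residues with 1 finger pattern, was at 48.9 CPM in NPCs and 77.1 CPM in neurons (1.58-fold, 1.47 to 1.69), with 14.5% of its words shared. Zfp9, with a KRAB core and 12 finger patterns, was at 19.1 and 30.2 CPM (1.58-fold, 1.41 to 1.78). Zfp558, also with a KRAB core, was at 67.6 and 104 CPM (1.53-fold, 1.44 to 1.63). The counting intervals of these 3 overlap, so their order is not resolved. Zfp238 followed by log2 ratio, and Zfp939, Zfp697 and Zfp583 lay 1.41-fold, 1.36-fold and 1.37-fold toward neurons. The other 8 members that were named toward neurons, Zfp324, Zfp704, Zfp239, Zfp599, Zfp74, Zfp81, Zfp458 and Zfp821, lay between 1.26-fold and 1.32-fold.

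**Figure D3:**
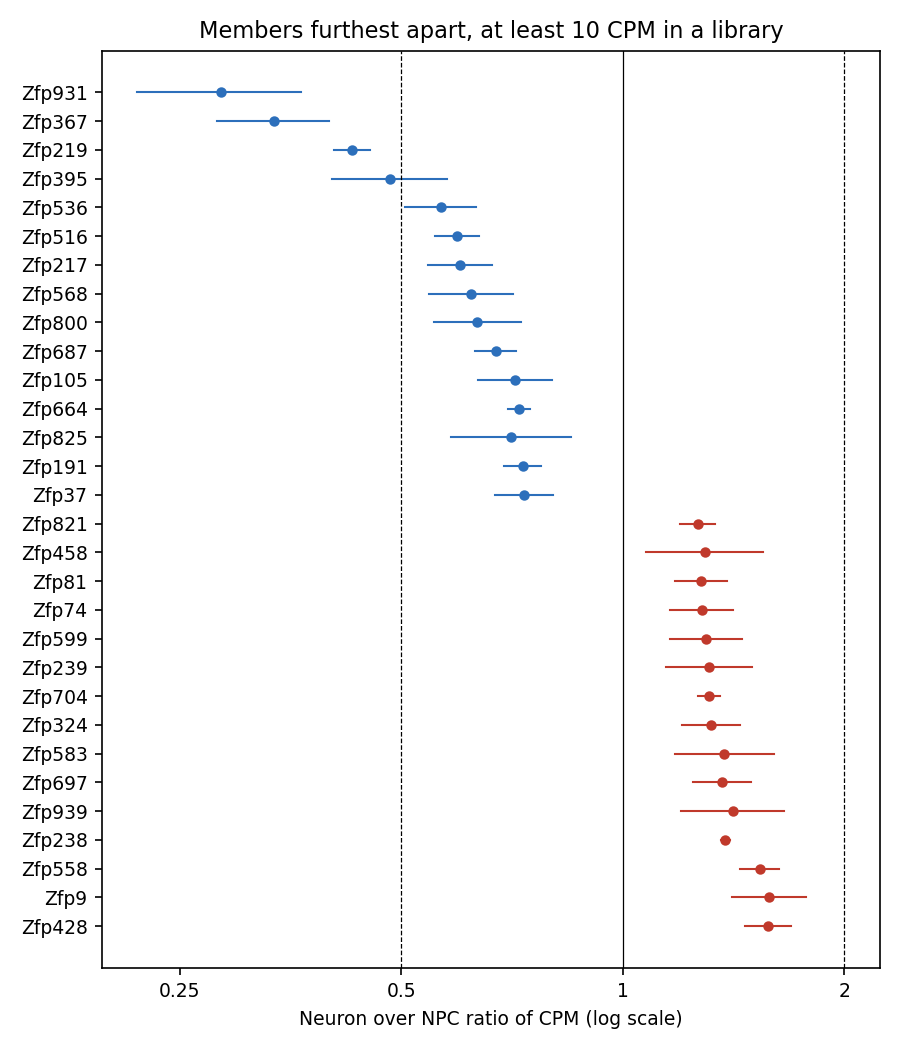
Neuron over NPC ratio of CPM, on a log scale, for the 15 members furthest apart in each direction among those with at least 10 CPM in a library. Points are ratios and bars exact 95% counting intervals, with blue for higher in NPCs and red for higher in neurons. Zfp931, Zfp367 and Zfp219 have intervals wholly beyond 2-fold, and no member reaches 2-fold toward neurons.

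The limit of 10 CPM left out members with larger folds at fewer reads. Zfp936, a KRAB gene with 11 finger patterns, was at 7.67 CPM in NPCs (207 reads) and 0.966 CPM in neurons (22 reads), 7.95-fold toward NPCs (5.11 to 12.96). It had the largest fold of the 313 members, and 15.2% of its words are shared with other genes. Without the added 1 CPM, Zfp69 (4.12 and 1.84 CPM) and Zfp953 (5.67 and 2.77 CPM) were also past 2-fold toward NPCs. Toward neurons Zfp457 was, at 0.556 and 1.19 CPM from 15 and 27 reads (2.13-fold, 1.09 to 4.31), and Zfp575 was at 3.41 and 6.15 CPM (1.80-fold, 1.38 to 2.37). Just above the limit by their higher library were Zfp759 (10.1 CPM), Zfp764 and Zfp109 (both 10.3 CPM). Just below it were Zfp53 (9.96 CPM), Zfp772 and Zfp809 (both 9.71 CPM).

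Members with known roles in neural development gave varied values. Zfp536, Zfp238 and Zfp462, given above, lay 1.77-fold, 1.38-fold and 1.19-fold apart, and the next 4 were closer to equality. Zfp521, which drives embryonic stem cells toward neural fate, was at 47.0 and 46.7 CPM, and its relative Zfp423, needed for the cerebellum, at 37.9 and 38.0 CPM. Their NPC over neuron and neuron over NPC ratios were 1.01 (0.927 to 1.09) and 1.003 (0.915 to 1.099). Zfp335, a chromatin factor whose loss causes microcephaly, was at 76.0 and 74.8 CPM (1.02-fold toward NPCs, 0.952 to 1.08). Zfp609, a partner of the cohesin loader Nipbl in neural progenitors, was at 248 and 245 CPM (1.01-fold, 0.977 to 1.05). Under the authors' scaling no difference of these 4 was detectable beyond counting error. With scaling by total reads the log2 ratio of Zfp609 went from −0.018 to −0.084, outside its counting interval. Zfp711, an X-linked partner of the demethylase Phf8, was at 69.4 and 75.4 CPM (1.09-fold toward neurons, 1.02 to 1.16).

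For 5 other DNA-binding factors the folds lay between 1.003 (Zfp281) and 1.19 (Zfp143 and Zfp410). Zfp281 was at 95.5 and 95.9 CPM and Zfp148 (ZBP-89) at 199 and 212 CPM. Zfp143, which binds many promoters, was at 39.2 and 32.8 CPM (1.19-fold toward NPCs, 1.09 to 1.31), and Zfp410, an activator of Chd4, at 73.4 and 61.6 CPM (1.19-fold, 1.11 to 1.28). Zfp161 (now Zbtb14) was at 60.8 and 56.2 CPM. Both Nrif genes, whose products bind the neurotrophin receptor p75, lay toward NPCs, with Zfp369 at 44.5 and 38.8 CPM (1.15-fold, 1.05 to 1.25) and Zfp110 at 60.1 and 57.8 CPM. The interval of Zfp110 (0.965 to 1.12) includes equality.

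Members with roles in RNA and protein handling gave values on both sides. Zfp36 was at 6.60 and 8.38 CPM (1.27-fold toward neurons, 1.03 to 1.57). Zfp259 was at 44.7 and 52.8 CPM (1.18-fold, 1.09 to 1.28), and Zfp622, a factor of ribosome maturation, at 29.5 and 33.7 CPM (1.14-fold, 1.03 to 1.26). Zfp598, the ubiquitin ligase that senses collided ribosomes, was at 68.2 and 67.5 CPM, and the double-stranded RNA binding Zfp346 at 40.6 and 41.3 CPM. Zfp326, which couples splicing to elongation, was at 86.1 and 66.0 CPM (1.30-fold toward NPCs, 1.22 to 1.39), and the ubiquitin ligase gene Zfp91 at 193 and 169 CPM (1.14-fold, 1.09 to 1.19). Zfp593 was at 13.7 and 15.9 CPM, with 64.5% of its words shared. Zfp365, a centrosomal protein, was at 3.08 and 1.62 CPM (1.89-fold toward NPCs, 1.27 to 2.87).

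A small set of members was near silence. Below 1 CPM in both libraries were 20 members, and 11 of them had at most 3 reads in each. The pluripotency marker Zfp42 (Rex1), Zfp474, Zfp616 and Zfp735 had 0 reads in both, which allows up to 0.111 CPM in NPCs and 0.132 CPM in neurons at 3 reads. Zfp488, an oligodendrocyte factor, had 5 reads in NPCs and 0 in neurons. Zfp503, known from the striatum, was at 0.779 and 0.878 CPM, while its relative Zfp703 was at 70.4 and 74.7 CPM (1.06-fold toward neurons, 0.993 to 1.13). Floors and intervals cover counting error only, since PCR can copy 1 molecule into several reads.

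Members with a KRAB core had a lower median level than those without, and the median ratios of both classes were near 0. The 172 members with a KRAB core and 1 CPM or more had a median of 7.46 CPM per kilobase of transcript, and the 140 without one a median of 12.7. Their median log2 ratios were 0.0044 and −0.017, with 87 against 85 and 67 against 73 members higher in neurons against NPCs, and the sign of the first turned with scaling by total reads or upper quartiles. The KRAB rule was changed after these class values had been seen. A stricter pattern used first found a core in 144 members and gave 0 of 10 in the run from Zfp180 to Zfp94, where the rule used here finds 9. Under it the medians were −0.0041 with a core (n = 137) and 0.0013 without (n = 175), so the order of the classes depends on the pattern and neither median is far from 0. The median levels under the stricter pattern were 7.71 and 11.4 CPM per kilobase. In each class 2 members were 2-fold higher in NPCs, Zfp936 and Zfp931 with a KRAB core and Zfp367 and Zfp219 without, where 6.73% of all tested genes were. By finger number the median ratios were 0.045 for no pattern (n = 9), 0.0082 for 1 to 4 (n = 36), −0.0073 for 5 to 9 (n = 85) and 0.00070 for 10 or more (n = 182). The SDs were 0.29, 0.37, 0.35 and 0.28 in that order, and the median levels 10.9, 17.4, 11.0 and 8.17 CPM per kilobase. The 70 members with 10% or more of their words shared with other genes had an SD of 0.41, and the 242 with fewer an SD of 0.28. The widths between quartiles went the other way, at 0.26 and 0.31. Within 1.5-fold lay 94.3% and 94.2%, and the lowest log2 ratios were −2.14 and −1.21. Of the 4 members past 2-fold, Zfp219 alone was under 10%.

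**Figure D4:**
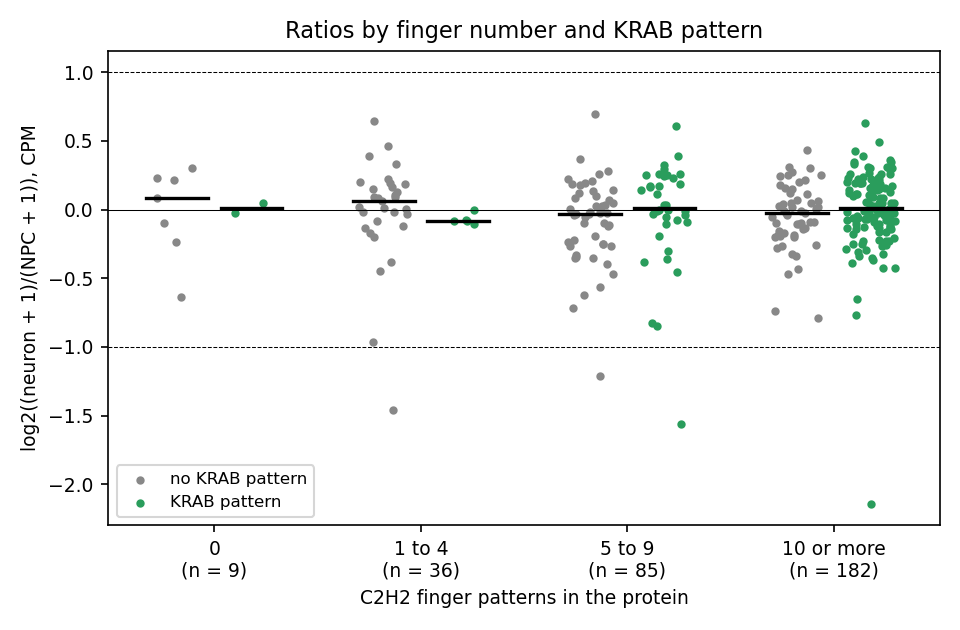
Log2((neuron + 1)/(NPC + 1)) of members with at least 1 CPM in a library, by number of C2H2 finger patterns and by KRAB core, with 1 point per member, black bars at medians and dashed lines at 2-fold. All classes centre near 0, and the 4 points beyond −1 fall in 3 of the 4 finger classes.

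Many members lie side by side in the genome, as KRAB zinc finger genes arose by local duplication. In the RefSeq gene order (GRCm38.p6), 10 runs of at least 5 members with at most 2 other coding genes between neighbours held 93 members, and all 93 passed 1 CPM. With 1 CPM added, none of these was 2-fold apart, where 3.85% of all tested genes were toward neurons and 6.73% toward NPCs. Without it, Zfp953 and Zfp457 in the first run were past 2-fold, in opposite directions. The SD over the members in runs was 0.23, against 0.34 over the 220 others. The run from Zfp712 to Zfp273 held 17 members, all with a KRAB core, whose log2 ratios ran from −0.83 (Zfp953) to 0.49 (Zfp457). The 15 members from Zfp677 to Zfp946 ran from −0.77 (Zfp820) to 0.20, with 9 higher in NPCs. The 15 members from Zfp84 to Zfp146 had the highest median of the 10 runs, 0.15, with 11 higher in neurons, or 10 with scaling by total reads or upper quartiles. Zfp568 in that run was at −0.65 while its neighbours reached 0.35 (Zfp74). Medians of the other 7 runs lay between −0.032 and 0.13. Under the authors' scaling each run thus held members of both directions. The run from Zfp868 to Zfp866 was narrow, from −0.14 to 0.049. In it 4 of 5 members were higher in NPCs, and all 5 with scaling by total reads.

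**Figure D5:**
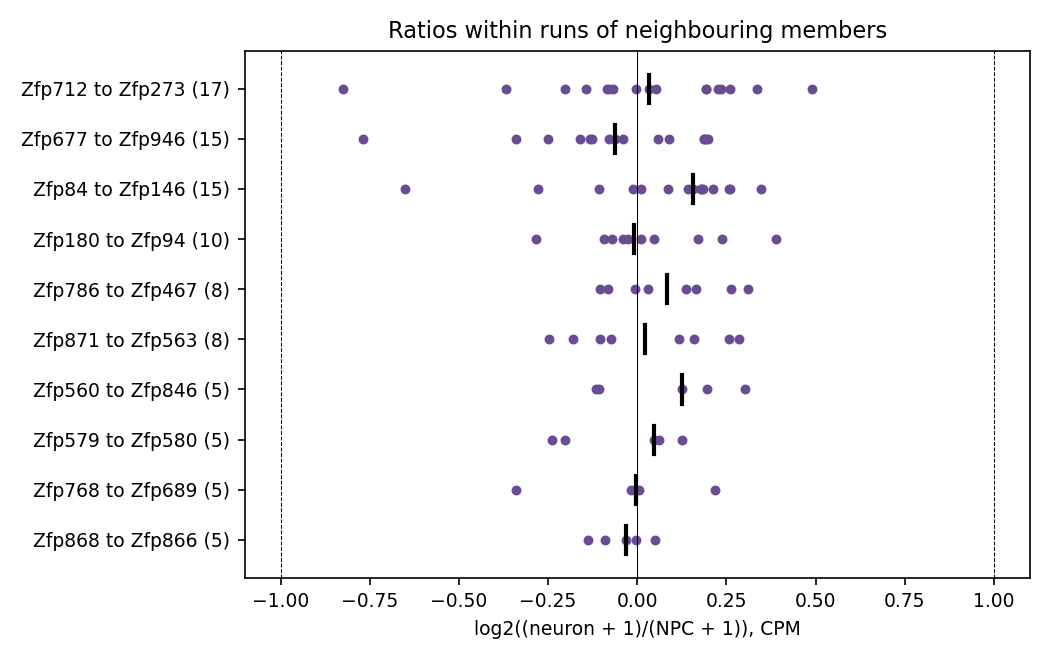
Log2((neuron + 1)/(NPC + 1)) of members within 10 runs of neighbouring numbered Zfp genes, each run named by its first and last member with the number of members at 1 CPM or more. Points are members, black bars medians, and dashed lines mark 2-fold. Each run has points on both sides of 0, and Zfp953, Zfp820 and Zfp568 stand lowest in the top 3 rows.

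The partners through which KRAB proteins silence chromatin were measured beside them. Of 21 listed corepressor and heterochromatin genes, 0 were 2-fold apart, against 3.85% and 6.73% of all tested genes toward neurons and NPCs. The median log2 ratio was −0.043, with 7 higher in neurons and 14 in NPCs, where all tested genes split 6262 and 6431. Scaling by total reads gave 4 and 17 and a median of −0.11. Trim28, the scaffold that binds the KRAB box, was at 479 and 466 CPM (1.03-fold toward NPCs, 1.001 to 1.05). Setdb1 was at 174 and 157 CPM (1.11-fold, 1.06 to 1.15). The histone deacetylase gene Hdac1 differed most, at 99.7 and 65.8 CPM (1.51-fold toward NPCs, 1.42 to 1.61). Chd3, a remodelling ATPase, was at 935 and 1198 CPM (1.28-fold toward neurons, 1.26 to 1.30), while its relative Chd4 was at 1011 and 826 CPM (1.22-fold toward NPCs, 1.202 to 1.25). Cbx1, an HP1 protein, was 1.23-fold toward NPCs (1.16 to 1.31).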

How the data were processed

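RNA of 1 NPC and 1 neuron library was analysed. The build was mm9, and TopHat 1.2.0, CASAVA 1.9, edgeR and SAMtools 0.1.18 were used, per the submitters' processing notes. The annotation, use of strand and treatment of multiply aligned reads were not given in the sources used here. The deposited values are a signal scaled by the authors, on a straight line in whole reads (steps of 0.953 and 1.13). Reads were recovered to within 0.05 for 100% of values (neuron values under 0.01 taken as 0), and both libraries were put on CPM by 1 constant, which keeps the authors' scaling. Genes with at least 1 CPM in a library were compared with 1 CPM added, and folds of single genes without it.

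Proteins were translated from GENCODE M21, the longest per gene, and its transcript gave the length. Words of 50 bases shared with any other gene's transcripts mark members whose reads may be misplaced. Promoters are RefSeq's (GRCm38.p6), a build other than mm9. The design had foreseen RefSeq proteins. A KRAB core needed 7 of 9 conserved residues in a window. That rule replaced a stricter pattern after the class medians had been seen, and CG counts replaced a search for 2 motifs after their shares had been seen. The calculations were tested on simulated data. Python 3.11.15, scipy 1.17.1 and pandas 2.3.3 were used.

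Named members are the 15 furthest apart in each direction at 10 CPM, the 10 highest by mean CPM, 40 with a known role (36 listed here), the 3 on each side of 10 CPM, and of the corepressors Trim28, Setdb1 and the 4 furthest apart. Zfp936, Zfp69, Zfp953, Zfp457, Zfp575, Zfp142, Zfp474, Zfp616, Zfp735, Zfp820 and Zfp946 were chosen after their values were seen. Members and lists were chosen with earlier results of these data known. Alternatives changed the added value, the filter and the scaling, and, added after seeing the data, the KRAB pattern.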

Additional observations from a re-analysis of the deposited data

How the results depend on the processing

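No paired analysis was possible because each group has 1 library. Under 7 alternatives (0.1 or 5 CPM added, no filter, a filter at 10 CPM, scaling by total reads, TMM or upper quartiles) the count of members 2-fold higher in neurons stayed 0, and the count 2-fold higher in NPCs ran from 3 to 5 except with 0.1 CPM added, where it was 7, because less is added to low values. Scaling by total reads moved the median log2 ratio of members to −0.063, that of KRAB members to −0.058 and that of members without KRAB to −0.083, as it lowers every neuron value relative to NPCs by 0.067. The stricter KRAB pattern, used before the present rule and kept as an alternative after seeing the data, gave medians of −0.0041 with and 0.0013 without a core, the opposite order to 0.0044 and −0.017. The width between the quartiles of ratios ran from 0.26 to 0.32. Of 65 named members, 6 changed sign with total reads and 3 with upper quartiles, none of which had a log2 ratio beyond 0.059 in size. With total reads 13 of the 65 fell outside their counting intervals, and with 5 CPM added Zfp931, Zfp367, Zfp395 and Zfp365 did. Among the 13 were Zfp238 (log2 ratio 0.46 to 0.39), Zfp462 (0.25 to 0.18) and Zfp445 (0.050 to −0.017). Counting intervals thus do not cover the choice of scaling. With 1 library per group, depth sets only the counting error, and the variation between animals is unknown. Reads of near-identical members may be misplaced: 75 members share 10% or more of their words and 18 share 50% or more.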
